A study of Rattus norvegicus with 4 samples.

Results

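The nuclear genes that encode the mitochondrial respiratory chain and ATP synthase were followed in 4 cultures of rat astrocytes. They were chosen by symbol. Every probe annotated to a single gene whose symbol begins with Ndufa, Ndufb, Ndufc, Ndufs, Ndufv, Sdh, Uqcr, Cox4, Cox5, Cox6, Cox7, Cox8 or Atp5 was taken, without the Ndufaf and Sdhaf assembly factors. Where a gene had several probes, the brightest on average was used. This gave 91 of the 18166 genes named on the array, with 40 in complex I, 4 in complex II, 9 in complex III, 18 in complex IV and 20 in complex V. Of the 91, 7 are isoforms known from particular tissues or conditions, and 16 carry copy or pseudogene symbols. The other 68 are called principal subunit genes here. They include the inhibitor gene Atp5if1 and Cox7a2l, a factor of respiratory supercomplexes. A gene was kept when its highest log2 signal was at least 5.83, which is the middle value of the table. The values were taken as log2 from their range, as no label states the scale. All 68 principal genes, 3 isoforms and 8 copies passed, which left 79 genes beside 11790 genes in all. The pathway was picked with its lower signal under GW already known from these arrays, so the differences below are a description and support no claim of their own.

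The cells were primary astrocytes from the cerebral cortex of Sprague-Dawley rats aged 1 day, held in serum-free medium for 2 days to deplete microglia and meningeal cells. A control siRNA was given to an untreated culture, to a culture treated with interferon-γ (IFN-γ) and to a culture treated with IFN-γ and the compound labelled GW. An siRNA against SHP was given to the other culture, which also received IFN-γ and GW, each treatment being 3 h long. Each of the 4 groups was 1 array, so no test between conditions was possible and every difference below describes these cultures. A difference is the log2 signal on the first-named array minus that on its comparator, and 1.2-fold was the size at which a gene was counted. No culture received GW without IFN-γ or SHP siRNA without GW among the arrays used here.

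The respiratory chain sits in the inner mitochondrial membrane. Complex I takes electrons from NADH and complex II from succinate, complex III passes them to cytochrome c, and complex IV hands them to oxygen. The proton gradient that complexes I, III and IV build drives complex V, the ATP synthase. Most subunits are encoded in the nucleus, and their promoters are known for sites of the transcription factors NRF1, GABP of the ETS family and YY1. In the brain, neurons depend heavily on this pathway, while astrocytes are known for a high rate of glycolysis.

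The arrays were alike in median, from 5.79 to 5.87, but differed in spread. The standard deviation over probes was 2.31 in each array without GW, 2.25 with GW and control siRNA, and 2.28 with GW and SHP siRNA, and the upper quartiles ran from 7.69 to 7.76. The gene that encodes small heterodimer partner, Nr0b2, read 5.33, 5.14 and 5.20 with control siRNA and 3.45 with SHP siRNA, all below the table median. Of 10 astrocyte markers 8 were named on the array, all past the filter, and their summed signal ran from 15326 to 18306. Of 15 microglia markers 14 were named, and their summed signal was 11694 without treatment, 9194 with IFN-γ, 6385 with IFN-γ and GW, and 7130 with SHP siRNA, IFN-γ and GW. In such bulk samples fewer cells of a type and less RNA per cell cannot be told apart.

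Both cultures with GW had lower signal for nearly all principal subunit genes than both cultures without it. Against IFN-γ alone, 70 of the 79 genes lay lower with IFN-γ and GW, where 57.8% of all genes did. At least 1.2-fold lower were 50 genes, where 22.5% of all genes were, and 5 were at least 1.2-fold higher, where 13.0% of all genes were. The median difference was -0.35, or 1.28-fold lower, against -0.05 over all genes. The difference was under 1.5-fold for most of the 79. At least 1.5-fold lower were 13 genes (4.97% of all genes), and 1 gene, Uqcrh, reached 2-fold (0.95% of all genes). None of the 79 was 1.5-fold higher (0 of 79), where 2.82% of all genes were and 0.958% were 2-fold higher.

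Among the 50 of these genes with a mean signal of 8 or above, all 50 lay lower with GW, with a median of -0.39. Over the 5209 genes of the whole table with such a mean the median was -0.10. At that level 37 of the 50 were at least 1.2-fold lower, where 25.1% of all genes were. After quantile normalization the median of the 79 genes was -0.30, after cyclic loess -0.29 and after median centring -0.27, each scaling thus keeping a negative median. Microglia markers were lower with GW as well, 12 of 14 below 0 with a median of -0.47, and their part in the subunit result was not tested. Astrocyte markers had a median of -0.24 with 5 of 8 below 0.

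**Figure D1:**
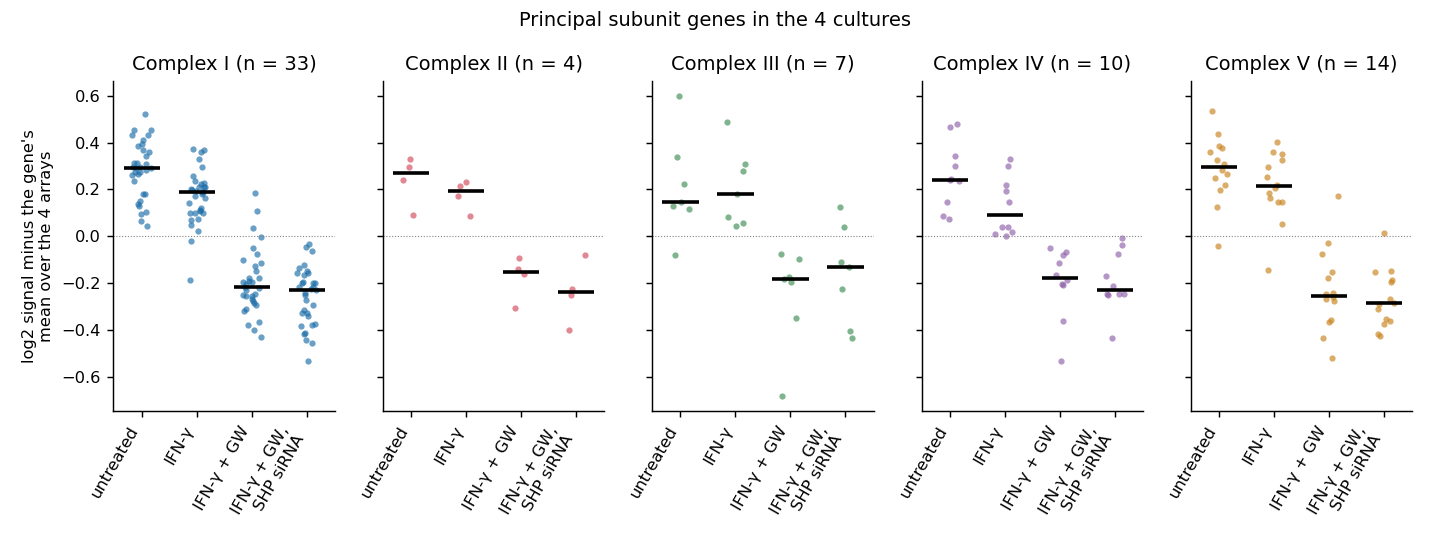
Log2 signal of the 68 principal subunit genes in each of the 4 arrays, minus the gene's own mean over the arrays, by complex; each point is a gene and each bar the median of its complex. In every complex the medians of the arrays with GW lie below 0 and those of the arrays without GW above 0.

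The 6 principal genes with the lowest GW difference among those with a promoter in the RefSeq table were Uqcrh, Atp5mc3, Cox7b, Atp5pf, Ndufa12 and Ndufa4. Uqcrh encodes the hinge protein of complex III, Atp5mc3 a precursor of the rotor subunit c of ATP synthase, Cox7b a small complex IV subunit, Atp5pf a peripheral stalk subunit and Ndufa12 an accessory subunit of complex I. Ndufa4 was named for complex I and has since been assigned to complex IV. Counts and medians by complex follow the symbol and keep it in complex I. Their promoters are shown because these genes were lowest together, with those of Cox8a and its muscle isoform Cox8b for contrast. Each stretch is the 150 bases before the annotated start in build GRCr8, 5′ to 3′ on the strand of the gene. Capitals mark matches on either strand to the palindromic NRF1 motif, the ETS core CCGGAA, the YY1 motif AAGATGGC or the GC box GGGCGG.
Uqcrh at chr5:134790883-134791032, minus strand: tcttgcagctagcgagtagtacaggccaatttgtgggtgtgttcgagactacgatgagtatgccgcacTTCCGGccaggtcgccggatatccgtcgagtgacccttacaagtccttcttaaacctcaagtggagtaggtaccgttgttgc
Atp5mc3 at chr3:79220665-79220814, minus strand: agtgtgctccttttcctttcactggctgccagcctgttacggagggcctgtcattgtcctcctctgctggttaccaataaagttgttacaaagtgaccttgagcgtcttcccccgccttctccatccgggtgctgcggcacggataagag
Cox7b at chrX:75148886-75149035, plus strand: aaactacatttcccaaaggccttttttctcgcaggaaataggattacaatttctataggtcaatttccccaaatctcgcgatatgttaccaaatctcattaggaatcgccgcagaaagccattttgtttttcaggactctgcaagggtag
Atp5pf at chr11:37375102-37375251, minus strand: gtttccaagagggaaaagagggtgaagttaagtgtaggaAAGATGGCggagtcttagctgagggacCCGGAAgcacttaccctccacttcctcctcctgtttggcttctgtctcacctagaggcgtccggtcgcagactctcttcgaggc
Ndufa12 at chr7:30658166-30658315, plus strand: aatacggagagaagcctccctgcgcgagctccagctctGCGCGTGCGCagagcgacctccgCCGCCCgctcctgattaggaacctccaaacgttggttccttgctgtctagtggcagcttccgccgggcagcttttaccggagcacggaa
Ndufa4 at chr4:40975560-40975709, minus strand: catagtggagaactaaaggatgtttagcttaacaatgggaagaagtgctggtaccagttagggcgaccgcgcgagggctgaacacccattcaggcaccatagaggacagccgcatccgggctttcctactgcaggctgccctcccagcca
Cox8a at chr1:213833624-213833773, minus strand: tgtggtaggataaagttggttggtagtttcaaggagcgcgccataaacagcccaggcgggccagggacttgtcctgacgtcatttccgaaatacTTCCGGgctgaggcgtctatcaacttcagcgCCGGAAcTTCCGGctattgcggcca
Cox8b at chr1:205408274-205408423, minus strand: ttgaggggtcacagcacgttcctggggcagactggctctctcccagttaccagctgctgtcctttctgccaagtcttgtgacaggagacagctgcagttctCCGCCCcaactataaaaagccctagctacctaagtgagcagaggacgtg
These genes held different matches in this stretch. Uqcrh had 1 ETS core, Atp5pf an ETS core and a YY1 motif, and Ndufa12 an NRF1 palindrome beside a GC box. Atp5mc3, Cox7b and Ndufa4 had none of these letters here. Cox8a held 3 ETS cores and Cox8b 1 GC box. A match is a description of the letters and not evidence of binding.

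Complex I supplied 33 of the 68 principal genes. Of these, 31 had both GW arrays below both arrays without GW (37.7% of all genes). With GW added to IFN-γ the 33 genes had a median difference of -0.37. At least 1.2-fold lower were 25 (22.5% of all genes) and at least 1.2-fold higher 1 (13.0%). The 6 core subunits on the array, which carry the flavin, iron-sulfur clusters and quinone site, had a median of -0.33. The 27 accessory subunits, which surround that core, had a median of -0.42. Among the core, Ndufs8, an iron-sulfur subunit near the quinone site, read 8.61 without treatment, 8.63 with IFN-γ, 8.07 with IFN-γ and GW, and 8.0 with SHP siRNA, IFN-γ and GW. Both GW arrays lay below both others, and GW went with a 1.47-fold lower signal. Ndufs1, the large iron-sulfur subunit, read 9.10, 8.99, 8.86 and 8.90 in the same order of cultures, a GW difference of -0.13. Ndufv1, which binds NADH, differed by -0.12, Ndufv2 by -0.36, Ndufs3 by -0.35 and Ndufs7 by -0.31.

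The accessory subunits spread further. Ndufa12 read 9.59, 9.49, 8.72 and 8.83 without treatment, with IFN-γ, with IFN-γ and GW, and with SHP siRNA, IFN-γ and GW, which is 1.7-fold lower with GW. Ndufa4 read 11.13, 11.04, 10.28 and 10.26, also 1.7-fold lower. For both genes the arrays with GW nearly coincided and lay well below those without it. Ndufb4, a membrane-arm subunit, read 8.40, 8.31, 7.56 and 7.50, and Ndufa2, a matrix-arm subunit, 7.13, 7.13, 6.47 and 6.30. These genes were chosen after their values were seen, apart from Ndufa4. All 10 principal Ndufb genes lay lower with GW, with a median of -0.44, from -0.74 for Ndufb4 to -0.10 for Ndufb7. Ndufb9 read 10.61, 10.43, 9.86 and 9.79, Ndufb10 8.55, 8.39, 7.90 and 7.78 and Ndufc2 10.67, 10.48, 9.99 and 9.99. In each of these 3 membrane-arm genes the arrays with GW lay below those without it. The 11 principal Ndufa genes had a median of -0.35, and Ndufc1 and Ndufc2 stood at -0.49 and -0.49.

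The 2 complex I genes without this separation were Ndufs6 and Ndufa6. Ndufs6, a zinc-binding accessory subunit, read 6.37, 6.14, 6.51 and 6.28, highest with IFN-γ and GW. The probe labelled for its pseudogene, Ndufs6-ps1, read 8.72, 8.40, 8.04 and 7.83 and stood 1.28-fold lower with GW. Near-identical copies can share probe sequence, so which transcript each of these probes reports is uncertain. Ndufa6 read 7.45, 7.37, 7.49 and 7.24, with the lowest value in the SHP siRNA culture and the others within a narrow range.

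Complex II, succinate dehydrogenase, also serves the citric acid cycle, and all its 4 subunits are nuclear. All 4 had both GW arrays below both others (37.7% of all genes). Sdhd, a membrane anchor, read 9.0 without treatment, 8.93 with IFN-γ, 8.39 with IFN-γ and GW, and 8.47 with SHP siRNA, IFN-γ and GW. The other anchor gene, Sdhc, read 10.33, 10.21, 9.86 and 9.59 in that order and was lowest with SHP siRNA. The iron-sulfur subunit gene Sdhb read 9.60, 9.54, 9.20 and 9.11, and Sdha, the flavoprotein that oxidises succinate, 10.30, 10.29, 10.12 and 10.13. GW differences were -0.54 for Sdhd, -0.35 for Sdhc, -0.33 for Sdhb and -0.18 for Sdha. Thus 3 of 4 were at least 1.2-fold lower (22.5% of all genes) and Sdha was not.

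Complex III held both the gene with the lowest GW difference of all 79 and several that differed little. Uqcrh read 10.82 without treatment, 10.71 with IFN-γ, 9.54 with IFN-γ and GW, and 9.81 with SHP siRNA, IFN-γ and GW. The GW array with control siRNA was 2.25-fold below IFN-γ alone and the GW array with SHP siRNA 1.86-fold below it. The core protein genes Uqcrc1 and Uqcrc2 differed by -0.18 and -0.24 with GW, and Uqcrfs1, the Rieske iron-sulfur protein that passes electrons to cytochrome c1, by -0.13. These genes did not reach 1.2-fold, whereas the small subunit genes Uqcr11 (-0.46) and Uqcrq (-0.36), named after their values were seen, did. So did cytochrome c1 (Cyc1, -0.38), a complex III subunit that the symbol rule leaves out. In Uqcrc2 the SHP siRNA array, at 9.57, lay beside that of IFN-γ alone at 9.58. Uqcrb, a quinone-binding small subunit, read 5.85, 6.24, 5.58 and 6.05. It was the 1 principal complex III gene whose arrays with and without GW overlapped, and its values lie near the table median, with no background level known.

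Complex IV, cytochrome c oxidase, carries its catalytic centres on subunits encoded in mitochondrial DNA, which this list does not include. All 10 of its principal nuclear genes had both GW arrays below both others (37.7% of all genes), yet 5 of the 10 were at least 1.2-fold lower with GW (22.5%). The median of the 10 with GW was -0.28, the smallest in size of the 5 complexes as grouped by symbol. Ndufa4 (-0.76) was counted in complex I, and moving it to complex IV would change this ranking. Cox7b read 9.26 without treatment, 9.08 with IFN-γ, 8.25 with IFN-γ and GW, and 8.54 with SHP siRNA, IFN-γ and GW, 1.78-fold lower with GW. Cox5b, a zinc-binding subunit, read 8.80, 8.67, 7.97 and 7.90 in that order, 1.62-fold lower. In both genes the gap between the arrays with and without GW exceeded the difference between the arrays on either side. Cox6a1 differed by -0.35, Cox8a by -0.43 and Cox7c by -0.38. The regulatory subunit gene Cox4i1 read 9.80, 9.66, 9.57 and 9.58, a GW difference of -0.09. Cox6b1 and Cox7a2l, the latter a factor of respiratory supercomplexes, both stood at -0.07, and Cox5a and Cox6c at -0.20 and -0.15.

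Complex V, the ATP synthase, had the lowest median of the 5 complexes with GW over its 14 principal genes, at -0.47. Of the 14, 11 were at least 1.2-fold lower, where 22.5% of all genes were. The catalytic F1 head was represented by Atp5f1a, Atp5f1b and Atp5f1d, with GW differences of -0.44, -0.08 and -0.34. Atp5f1b, the catalytic β subunit, read 10.72 without treatment, 10.64 with IFN-γ, 10.56 with IFN-γ and GW, and 10.44 with SHP siRNA, IFN-γ and GW. Its 4 values lay close together with both GW arrays lowest. Atp5mc3 read 9.50, 9.37, 8.45 and 8.55 in the same order and Atp5mc1, which encodes the same mature subunit c with another targeting peptide, 8.57, 8.49, 7.94 and 7.76. Atp5mc3 stood 1.89-fold and Atp5mc1 1.46-fold lower with GW. The arrays with GW lay below those without it in both genes.

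The stalk and membrane genes of ATP synthase followed the same order. Atp5pf read 8.49, 8.41, 7.62 and 7.69, 1.73-fold lower with GW. Of the other stalk genes, Atp5pb differed by -0.32 and Atp5po, the oligomycin sensitivity subunit, by -0.22. The membrane subunit genes Atp5me, Atp5mf, Atp5mg and Atp5mk differed by -0.68, -0.61, -0.62 and -0.49. Atp5if1, an inhibitor of ATP hydrolysis by the enzyme, read 10.13, 10.01, 9.56 and 9.51 and was 1.37-fold lower. The exception was the stalk gene Atp5pd, which read 6.77, 6.66, 6.98 and 6.82, with both GW arrays above both others.

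**Figure D2:**
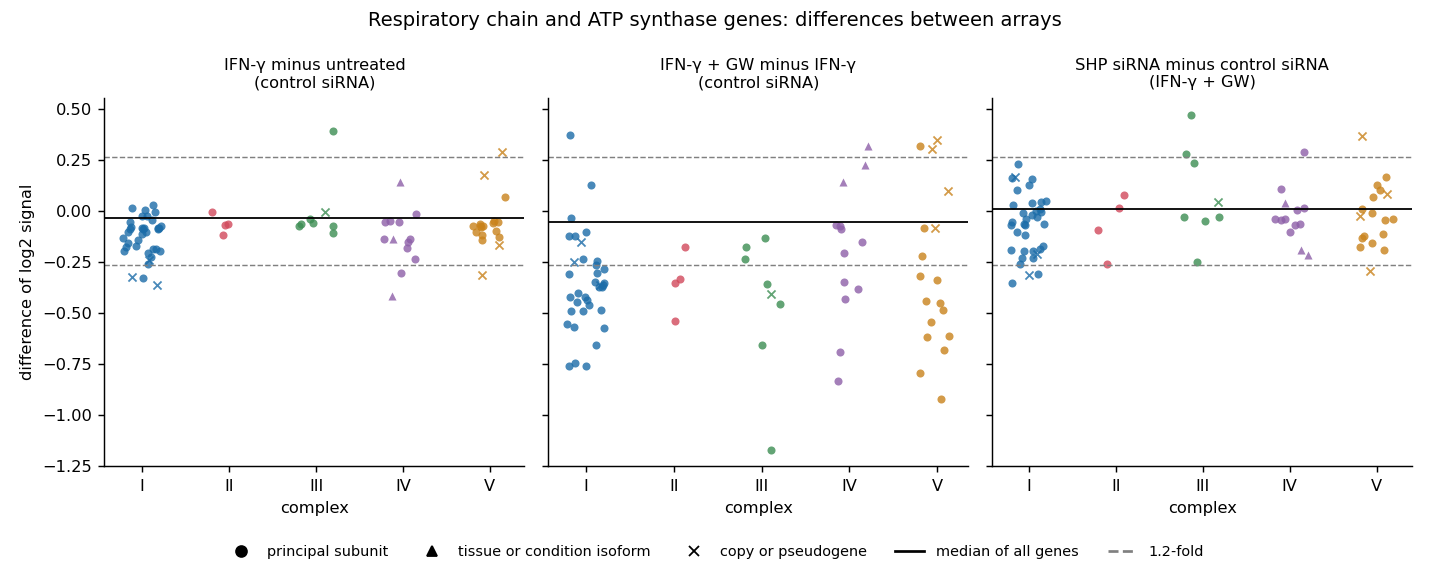
Differences of log2 signal between pairs of arrays for the 79 genes past the filter, by complex, for IFN-γ against untreated, GW added to IFN-γ, and SHP siRNA against control siRNA. The solid line is the median of all genes and the dashed lines mark 1.2-fold. At or below the lower dashed line are 50 genes in the middle panel (22.5% of all genes). The left panel has 6 (9.64% of all genes) and the right panel 4 (9.15%).

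The split into principal genes, isoforms and copies was made after the values were seen, and the classes were not tested against each other. None of the 3 isoforms past the filter (0 of 3) had both GW arrays below both others, beside 3 of 8 copies, 64 of 68 principal genes and 37.7% of all genes. Of those 3 copies, Ndufb4l4 and Uqcr10-ps1 passed the filter only through arrays without GW. Cox4i2, the isoform induced by low oxygen in lung and other tissues, read 5.62, 5.76, 5.90 and 5.71, while Cox6a2, a muscle isoform, read 6.41, 6.28, 6.59 and 6.38 and Cox6b2, a testis isoform, 6.30, 5.89, 6.11 and 6.15. All 3 stood above 0 with GW, from 0.14 to 0.32, but Cox4i2 passed the filter only through the array with IFN-γ, GW and control siRNA. Below the filter, the isoforms Cox7b2, Cox8b, Cox8c and Ndufa4l2 had GW differences from -0.22 to 0.56. The 16 copies, filter aside, had a median of 0.0064, and 8 of them lay below 0. Of these 23 isoforms and copies, 12 stayed below the table median in every array.

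The separation of the arrays with GW from those without it was counted over all genes as well. Both GW arrays lay below both others in 67 of the 79 genes, or 84.8%, and in 64 of the 68 principal genes, or 94.1%. Over all genes this held for 37.7%, and the opposite order, found in 2 of the 79, for 21.4%. Among genes with a mean of 8 or above it held for all 50 subunit genes and for 46.5% of all genes. The lowest of the 4 values was that of the SHP siRNA culture for 41 of the 68 principal genes and that of the GW culture with control siRNA for 25, and the highest that of the untreated culture for 60. The 2 arrays on each side come from different treatments, so they are not replicates, and an effect of GW and a difference between single cultures cannot be told apart.

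The subunit genes were also compared in differences that share no array. In IFN-γ with GW against untreated, 72 of 79 genes lay below 0 (60.3% of all genes), the median being -0.45. By 1.2-fold or more, 58 were lower (27.5%) and 2 higher (14.0%). At 1.5-fold 24 were lower (6.62%) and 0 higher (3.95%), and at 2-fold Uqcrh, Atp5mc3 and Cox7b, or 3, were lower (0.84%) and 0 higher (1.65%). In SHP siRNA with IFN-γ and GW against IFN-γ alone, 71 of 79 lay below 0 (57.2% of all genes), the median being -0.39. By 1.2-fold or more, 53 were lower (20.5%) and 2 higher (12.2%). At 1.5-fold 18 were lower (3.72%) and 1 higher (2.0%), and at 2-fold 0 were lower (0.407%) and 0 higher (0.45%). Below 0 in both differences were 68 of the 79 genes. At least 1.2-fold lower in both were 51 of the 79, against 12.8% of all genes. Over the 79 genes the 2 differences correlated with a Pearson r of 0.80 and a Spearman rho of 0.83, where all 11790 genes gave 0.54 and 0.55. These genes share the 4 arrays and are no independent replicates. The other pair of this kind, SHP siRNA with GW against untreated and GW added to IFN-γ, gave 0.77 and 0.76 over the same 79 genes. In SHP siRNA with GW against untreated 72 of 79 lay below 0 (59.2% of all genes), and by 1.2-fold or more 59 were lower (26.2%) and 1 higher (14.4%). At 1.5-fold 26 were lower (6.23%) and 0 higher (4.07%), and at 2-fold 2 were lower (0.882%) and 0 higher (1.59%). The remaining pair, IFN-γ against untreated and SHP siRNA against control siRNA, in which neither difference has GW on one side alone, gave 0.07 and -0.08.

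**Figure D3:**
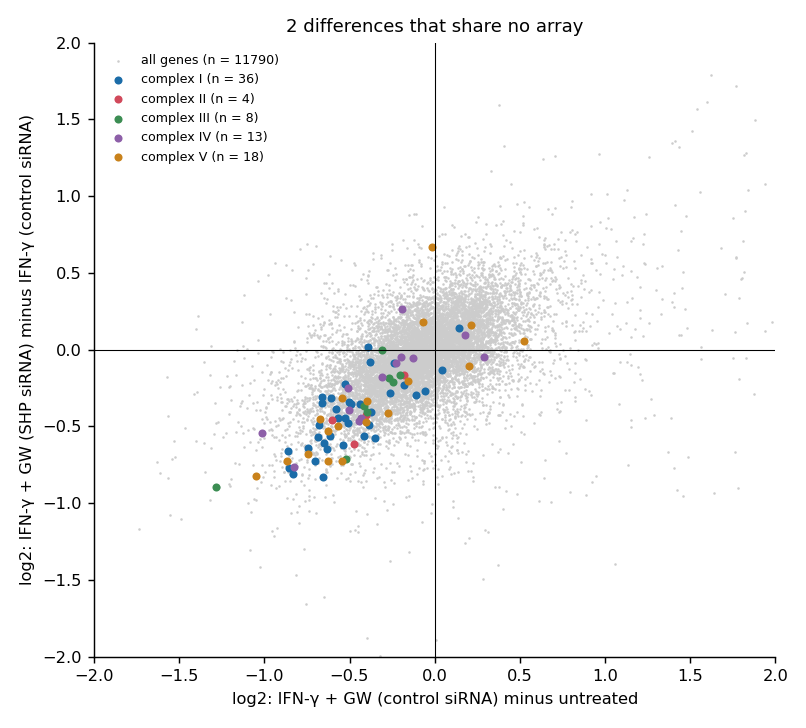
Log2 difference of IFN-γ with GW against untreated (horizontal) and of SHP siRNA with IFN-γ and GW against IFN-γ (vertical) for the 79 subunit genes, coloured by complex, over all 11790 genes in grey. The axes end at 2 in either direction, which leaves 79 grey genes outside; 68 of the 79 subunit genes lie in the lower left part, below 0 on both axes.

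IFN-γ alone went with small differences in these genes. Against the untreated culture 71 of 79 lay lower, where 59.8% of all genes did, but the median was -0.09 against -0.04 over all genes. At least 1.2-fold lower were 6 genes (9.64% of all genes) and at least 1.2-fold higher 2 (8.4% of all genes). At 1.5-fold 0 genes were lower (1.59% of all genes) and 0 higher (3.02%), and at 2-fold 0 were lower (0.288%) and 0 higher (1.61%). The lowest were the isoform Cox6b2 (-0.42), the copy Ndufb4l4 (-0.36), the accessory gene Ndufb6 (-0.33) and Ndufs6-ps1 (-0.32). The highest were Uqcrb (0.39), the copies Atp5mgl3 (0.29) and Atp5mgl1 (0.18), and Cox4i2 (0.14). Most of these 8 are isoforms, copies or genes near the table median. By complex the medians ran from -0.06 in complex III to -0.14 in complex IV. In complex IV all 10 principal genes lay below 0, with Cox5a at -0.31 and Cox6b1 at -0.24. Microglia markers were lower too, 13 of 14 below 0 with a median of -0.35, and their part was not tested.

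Under IFN-γ and GW, the culture given SHP siRNA had subunit levels near those of the culture given control siRNA. Of 79 genes 49 lay lower, where 48.4% of all genes did, and the median was -0.04 against 0.01 over all genes. At least 1.2-fold lower were 4 (9.15% of all genes) and at least 1.2-fold higher 4 (9.76% of all genes), shares below those of all genes. At 1.5-fold 0 were lower (1.2% of all genes) and 0 higher (1.42%), and at 2-fold 0 were lower (0.263%) and 0 higher (0.144%). Ndufb6 read 7.86 without treatment, 7.53 with IFN-γ, 7.16 with IFN-γ and GW, and 6.80 with SHP siRNA, IFN-γ and GW. Its value was lower in each culture than in the one named before, and it was the lowest with SHP siRNA, at -0.35, followed by Ndufb4l4 (-0.31), the accessory gene Ndufa7 (-0.31) and Atp5mgl1 (-0.29). The highest were Uqcrb (0.47), Atp5mc1l1 (0.37), Cox7b (0.29) and Uqcrh (0.28). Cox7b and Uqcrh were also among the 4 lowest genes with GW, and both differences use the GW array with control siRNA, whose error enters them with opposite signs.

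Other nuclear genes that serve the chain had negative medians with GW. Of 42 assembly factors past the filter 33 lay below 0 (57.8% of all genes), the median being -0.21. By 1.2-fold or more, 18 were lower (22.5% of all genes) and 1 higher (13.0%). Pet100, a complex IV assembly factor, read 8.27, 8.24, 7.25 and 7.37 in the 4 cultures, Sdhaf1 of complex II assembly 7.84, 8.43, 7.73 and 7.99, and the copper chaperone Cox17 8.48, 8.45, 7.93 and 7.84. The arrays with GW were lowest in Pet100 and Cox17, but the SHP siRNA array of Sdhaf1 lay above the untreated one. Cytochrome c1 (Cyc1), a subunit of complex III, and cytochrome c (Cycs), which links complexes III and IV, differed by -0.38 and -0.34. Both had the GW arrays below the others. The 13 mitochondrially encoded subunits on the list were not named on the array and were not analysed here.

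Mitochondrial ribosomal proteins, which translate the mitochondrially encoded subunits, gave values near those of the subunits. Of 71 genes 64 lay below 0 with GW (57.8% of all genes), the median being -0.29. By 1.2-fold or more, 41 were lower (22.5% of all genes) and 1 higher (13.0%). In 61 genes both GW arrays lay below both others (37.7% of all genes). The same order held in 30 of 42 assembly factors (71.4%) and 13 of 19 citric acid cycle and pyruvate dehydrogenase genes (68.4%). It also held in 53 of 89 cytosolic ribosomal proteins (59.6%), 8 of 14 glycolysis and lactate genes (57.1%) and 5 of 16 regulators of mitochondrial biogenesis (31.2%). Mrps17 (-0.74), Mrps21l (-0.72), Mrps21 (-0.65) and Mrps33 (-0.64) had the greatest sizes. Citric acid cycle and pyruvate dehydrogenase genes had a median of -0.17, with 16 of 19 below 0 (57.8% of all genes). At least 1.2-fold lower were 4 of the 19, a share near the 22.5% of all genes. In this list Pdk4, the kinase that inhibits pyruvate dehydrogenase, read 9.24, 7.99, 9.41 and 8.53, low with IFN-γ and high with IFN-γ and GW. Pdhb, a subunit of that enzyme, differed by -0.56, Dld by -0.41 and citrate synthase (Cs) by -0.15 with GW and -0.38 with SHP siRNA.

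Cytosolic ribosomal proteins and glycolysis genes were taken as lists outside the mitochondrion. Cytosolic ribosomal proteins, 89 genes, had a median of -0.20 with GW. By 1.2-fold or more, 33 were lower (22.5% of all genes) and 6 higher (13.0%). With SHP siRNA the median of these 89 was 0.14, with 15 at least 1.2-fold higher (9.76% of all genes) and 3 lower (9.15%). The 79 subunit genes had a median of -0.04 there, with 4 higher and 4 lower. The difference between these lists was not tested. Glycolysis and lactate genes had a median of -0.08 with GW. By 1.2-fold or more, 1 of 14 was lower (22.5% of all genes) and 2 were higher (13.0%). There Pfkfb3, which makes an activator of phosphofructokinase, stood at 0.96 and hexokinase 2 (Hk2) at 0.71, both higher, and Pfkp at -0.38. The glucose transporter gene Slc2a1 differed by 0.24 with GW and by -0.54 with SHP siRNA. The sign of the glycolysis median turned after median centring (0.0036) and cyclic loess (0.02).

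Regulators of mitochondrial biogenesis had no common direction with GW. Among the 16 kept, 5 were lower by 1.2-fold or more (22.5% of all genes) and 4 higher (13.0%). The median of the 16 was -0.01 (0.07 after median centring). Myc, a growth-promoting factor, read 8.31, 8.80, 10.15 and 9.84, and Pprc1, a relative of PGC-1α, 7.39, 7.39, 8.17 and 7.85. Both were higher in the arrays with GW. Tfb2m, a factor of mitochondrial transcription, read 7.49, 7.31, 6.85 and 7.26. The GABP subunit genes Gabpa and Gabpb1 differed by -0.39 and -0.39 with GW, but both were highest with IFN-γ alone. Gabpa read 8.96, 9.18, 8.79 and 9.14 and Gabpb1 6.08, 6.55, 6.16 and 6.24, so neither had both GW arrays below both others. Gabpa and Tfb2m differed by 0.36 and 0.41 in the SHP siRNA comparison. The coactivator gene Ppargc1a read 7.20, 6.86, 7.24 and 7.40, lowest with IFN-γ alone, and was named after its values were seen.

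**Figure D4:**
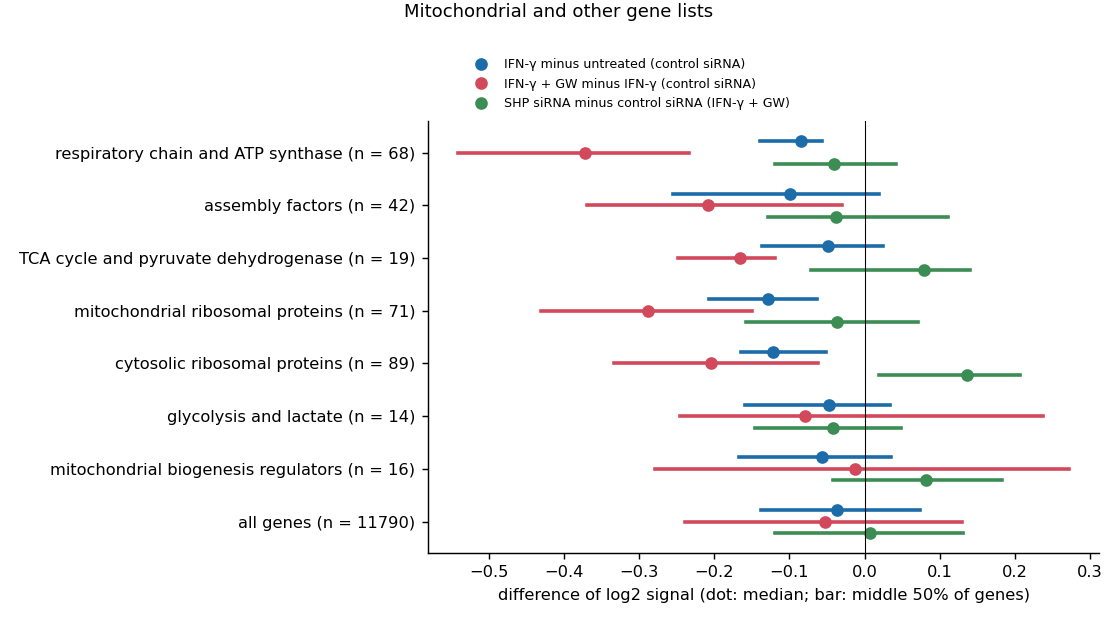
Median difference of log2 signal (dots) and its middle 50% over genes (bars) for the 68 principal subunit genes, 6 related lists and all genes, in 3 comparisons. With GW added to IFN-γ the median is -0.37 for the subunit genes, -0.29 for mitochondrial ribosomal proteins, -0.20 for cytosolic ribosomal proteins and -0.05 for all genes.

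Promoter letters were compared over 300 bases, from 250 before to 50 after the RefSeq start in GRCr8. Of the 68 principal genes 61 had an entry, and the other 7 were not searched. The YY1 motif AAGATGGC stood in 14 of 61, or 23.0%, against 5.33% of the 9672 genes past the filter with an entry and 3.44% of all 27457 promoters. The NRF1 palindrome stood in 12 of 61, or 19.7%, against 9.53% and 4.71%. The ETS core stood in 25 of 61, or 41.0%, against 27% and 15.8%. At least 1 of these 3 was present in 40 of 61, or 65.6%, against 36.1% of genes past the filter. The GC box stood in 41.0%, against 61.3% and 34.9%, so below genes past the filter and above all promoters. The TATA box TATAAA stood in 8.2%, against 6.98% and 14.3%. None of these motifs contains another, and every match was counted on either strand.

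The GW differences of genes with and without these letters are given as medians. The 40 genes with an NRF1, ETS or YY1 match had a median of -0.38 and the 21 without one -0.37. By motif the medians with a match were -0.24 for NRF1, -0.43 for ETS and -0.36 for YY1, beside -0.38, -0.37 and -0.38 without. These groups were not tested against each other, and a match in this window is no evidence that a factor binds there.

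**Figure D5:**
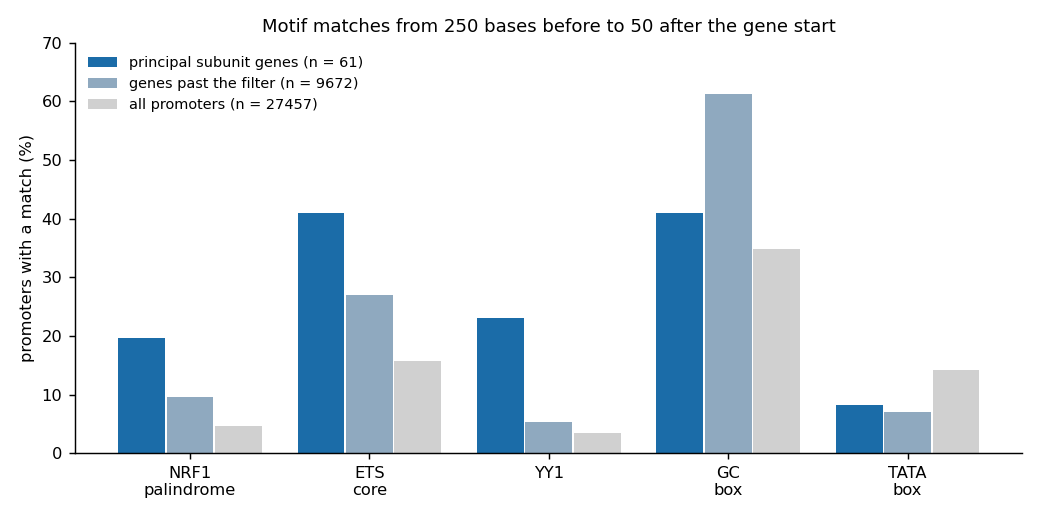
Share of promoters, in percent, with at least 1 match to each of 5 motifs from 250 bases before to 50 after the gene start, for 61 principal subunit genes, 9672 genes past the filter and 27457 promoters in all. YY1, NRF1 and ETS matches stand in 23.0%, 19.7% and 41.0% of the subunit promoters, each above both reference shares.

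Probes annotated to several genes were left out of the list by rule and are given here as a check. There were 8 that named a subunit gene, and 7 of them read lower with GW than with IFN-γ alone. The 2 probes for Cox7a2 and its copy Cox7a2l2 differed by -0.80 and -0.83. Probes for Ndufa3, Atp5f1c and Atp5mc2 with their partners differed by -0.60, -0.23 and -0.20, and the probe for Ndufa10 and Ndufa10l1 by 0.02. Among 5 genes with more than 1 probe, the probes of Atp5mk, Cox5a and Ndufb3 had GW differences of -0.49 and -0.52, of -0.20 and -0.21, and of -0.46 and -0.50. In Cox6b1 the brighter probe stood at -0.07 and a dim probe, below the table median throughout, at 0.86, and in Ndufv3 the probes stood at -0.25 and -0.01.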

How the data were processed

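Each of the 4 samples was 1 single-colour array of biotin-labelled sense cDNA, per the labels' protocols. The deposited table gives 1 value per probe and array, taken as log2 signal from its range, since neither scale nor unit is stated; how the authors corrected background, summarised probes and normalized is not stated in the labels. Of 29489 probes 18511 had 1 gene symbol, 575 several and 10403 none. All 91 genes matched RefSeq (GRCr8). The values were used as deposited, and differences, counts and medians were computed in Python 3.11.15, with quantile normalization and cyclic loess from limma 3.58.1 in R 4.3.3. The steps were tested on simulated data. With 1 array per group there is no replicate error and no p-value, and precision is limited by the number of arrays.

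The genes, gene lists and motifs were chosen with earlier results of these data known, and the split into principal genes, isoforms and copies was made after the values were seen. Members named with values were the 4 highest and 4 lowest of each main comparison, the member of highest mean in each complex, fixed core subunits and isoform pairs, and up to 4 genes of each related list; others are described as chosen after their values were seen, including most accessory subunits. No detection call was used. A median was said to move when another setting shifted it by 0.1 log2. The alternatives were quantile normalization, median centring, cyclic loess, dropping the filter or applying it to the mean, the mean of probes, the mean over genes, and thresholds of 1.5-fold and 2-fold. A filter on a mean of 8, and the same scalings for the related lists, correlations and separation counts, were added after seeing the data. A further motif is not reported here.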

Additional observations from a re-analysis of the deposited data

How the results depend on the processing

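The median of the 79 genes kept its sign in all 6 differences under every alternative run. With GW added to IFN-γ it ran from -0.36 to -0.27, and the count at least 1.2-fold lower from 42 to 53, apart from the filter on a mean of 8, which gave -0.39 and 37 of 50 genes. Both GW arrays lay below both others in 66, 62 and 62 genes after quantile normalization, median centring and cyclic loess. Counts depend on the threshold. In the order IFN-γ against untreated, GW, SHP siRNA, IFN-γ with GW against untreated, and SHP siRNA with GW against IFN-γ and against untreated, 0, 13, 0, 24, 18 and 26 genes were 1.5-fold lower and 0, 0, 0, 0, 1 and 0 higher. At 2-fold, 0, 1, 0, 3, 0 and 2 were lower and 0 higher in each. Small counts of 1.2-fold higher genes moved. For IFN-γ with GW against untreated they went from 2 to 1 (quantile normalization, cyclic loess, filter on the mean), 5 (median centring) and 0 (mean of 8). For SHP siRNA with GW against IFN-γ they went from 2 to 1 (quantile normalization, cyclic loess), 6 (no filter) and 0 (mean of 8), and against untreated from 1 to 4 (median centring, no filter) and 0 (mean of 8). Without the filter 8 were higher with GW and 8 with SHP siRNA, and at a mean of 8, where fewer genes were counted, 0 and 2. With SHP siRNA 7 were lower after cyclic loess and 0 at a mean of 8; with IFN-γ 2 were lower and 0 higher at a mean of 8. Values near 0 turned sign. The complex III median with SHP siRNA was -0.0009 after median centring, -0.0316 without the filter and with the filter on the mean, and -0.0321 at a mean of 8. The median of all genes was 0.0295, 0.0165, 0.0331 and 0.0192 in the 4 differences with GW on 1 side after median centring, and -0.0037 and -0.0074 with SHP siRNA after cyclic loess and without the filter. The medians with GW of biogenesis regulators (0.0695, median centring) and of glycolysis genes (0.0036, median centring; 0.0231, cyclic loess) also turned. The cause was not tested. No paired analysis was possible because each group had 1 array, and for the same reason no replicate could be left out. Probes near the table median are limited by an unknown background.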
